A study of Homo sapiens with 6 samples.

Results

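The RNA sites of an hnRNP A1 variant in which the tandem RNA recognition motifs are uncoupled (A1dm, carrying R75D and R88D) were compared with those of wild-type hnRNP A1 (A1), both taken from the monomer band of PAR-CLIP gels. The members were the 4 libraries whose labels give the monomeric complex, 2 per protein, and they held 14733 of the 16269 clusters (called binding sites) in the 6 libraries of the series. All libraries came from HEK293T cells, a human embryonic kidney line, that had been transiently transfected with a plasmid for the myc-tagged protein, fed 4-thiouridine and UV cross-linked before precipitation with a rabbit polyclonal anti-myc antibody. The cells also make their own untagged hnRNP A1 in both groups, the amount of tagged protein is not part of the lists, and the cell line could not be checked against markers because the lists hold positions of sites and no expression.

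hnRNP A1 is an abundant nuclear protein that shuttles to the cytoplasm and binds pre-mRNA and mRNA, where it acts in splice site choice, mRNA export and translation. It contacts RNA through RNA recognition motifs that are joined by a short linker and held against each other by salt bridges, followed by a glycine-rich tail of low complexity, and the UAGG word is its classical binding site. In PAR-CLIP the cross-linked 4-thiouridine is read as a T-to-C change, so a cluster is called around a T.

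The sites that returned in both A1dm libraries show what the lists contain. The following stretches of hg19 are printed 5′ to 3′ on the transcribed strand, with every run of at least 12 purines in capitals. The first set holds sites that also carried a cluster in both A1 libraries, chosen because they lie in different kinds of RNA region: coding exon 10 of EIF4G1 (chr3:184039795-184039820, plus strand), a scaffold of translation initiation, coding exon 9 of HSP90AA1 (chr14:102549445-102549470, minus strand), an inducible HSP90 chaperone, coding exon 9 of MKI67 (chr10:129910503-129910523, minus strand), a protein of proliferating cells, the last exon of SUPT16H in its 3′ UTR (chr14:21819960-21819987, minus strand), a subunit of the histone chaperone FACT, intron 3 of UCHL5 (chr1:193016906-193016928, minus strand), a deubiquitinase, and intron 1 of DYRK1A (chr21:38753568-38753590, plus strand), a protein kinase.
EIF4G1: gagagtGAGAAAGGAGGAGAGGAAct
HSP90AA1: agaggatGAAGAAGAGAAAAAGAAGc
MKI67: AAGAGAGGAGGGAGAAAGAGt
SUPT16H: gatGAGAAAAGAGAAGAGGAAGGGAGGc
UCHL5: gatGGAAAAGAAGAGGAAAAGGc
DYRK1A: GAGGAAAAAGGAAAAGAtgaagt

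The second set holds sites that were found in both A1dm libraries and in neither A1 library, chosen to show the sequences that differ from the first set. They lie in coding exon 3 of HMGB2 (chr4:174254243-174254266, minus strand), a DNA-bending chromatin protein, in an exon of the noncoding gene ENSG00000259001 (chr14:20811381-20811410, minus strand), in intron 1 of the noncoding gene ENSG00000236469 (chr2:71273531-71273559, minus strand), and in introns of AGBL5 (chr2:27273732-27273754, plus strand), a tubulin-modifying carboxypeptidase, and FGF13 (chrX:138218039-138218058, minus strand), a fibroblast growth factor homolog that stays inside the cell. The site in HMGB2 held a purine run and the other 4 did not. Genes are named by genome position alone, and whether the reads at these sites, FGF13 included, came from another RNA with like bases was not tested.
HMGB2: gatAAGAAGGGGAAGAAAAAGGAc
ENSG00000259001: cgcgaggtcagactgggcaggagatgccgt
ENSG00000236469: ccctggcggtctagtggttaggattcggc
AGBL5: cgaaggacttcgtctgtaatttt
FGF13: acatgatgaaggacgtgata

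The A1 libraries held 5805 and 8100 clusters and the A1dm libraries 232 and 596, so that 16.8 times as many A1 as A1dm clusters were listed. These numbers are of the deposited wavClusteR clusters, whereas the peaks of the study were called with another program, PARalyzer, so numbers and shares here are not those of its peaks. The cluster size was alike, with a median length of 24 and 25 nucleotides in A1 and 23 and 24 in A1dm. The deposited score was 0 for every cluster, so the read depth behind a site is unknown, and a site absent from a list could have been bound with too few reads for a call. Shares of clusters are therefore given with 95% Wilson intervals that cover counting error only, and numbers of clusters or genes are set beside those expected when an A1 list is thinned evenly to the size of an A1dm list. Even thinning takes all A1 clusters as equally likely to be kept, and whether a shallower A1 library would lose them evenly was not tested. The 2 libraries of a group are described in the study as independent experiments, and A1dm replicate 1, with the fewest clusters of the 4, has the widest intervals.

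A1dm clusters lay less often in introns and more often in exons, near transcript starts and near transcript ends than A1 clusters. In the deposited annotation, in which promoter-TSS and TTS name the surroundings of a transcript's start and end, the intronic share was 60.6 and 59.9% in the A1 libraries and 47.0 and 43.3% in the A1dm libraries (intervals 40.7 to 53.4% and 39.4 to 47.3%). The exonic share was 6.08 and 5.36% in A1 and 10.8 and 10.9% in A1dm. In each of these classes both A1dm libraries lay on the same side of both A1 libraries.

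The mean difference between A1dm and A1 was -15.1 points for introns, 5.12 points for exons, 4.75 points for TTS (13.8% ± 0.567 against 9.07% ± 0.277, SD, n = 2) and 5.94 points for promoter-TSS (15.6% ± 1.92 against 9.65% ± 0.0262, SD, n = 2). The intergenic share differed by -2.30 points, and its nearest libraries, 14.4% in A1 replicate 1 and 14.3% in A1dm replicate 2, were almost level. When only regions shared by the replicates of each protein were counted, 34 for A1dm, the differences were -26.0 points for introns, 16.6 for TTS, 1.76 for promoter-TSS and -0.525 between genes. For groups of 2 libraries the smallest p of the exact permutation test (two-sided) is 0.333. Of the 12 differences tested, all but that for the word TAGG reached this value, which is 0.364 after Benjamini-Hochberg adjustment, so none passed a threshold of 0.05.

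**Figure D1:**
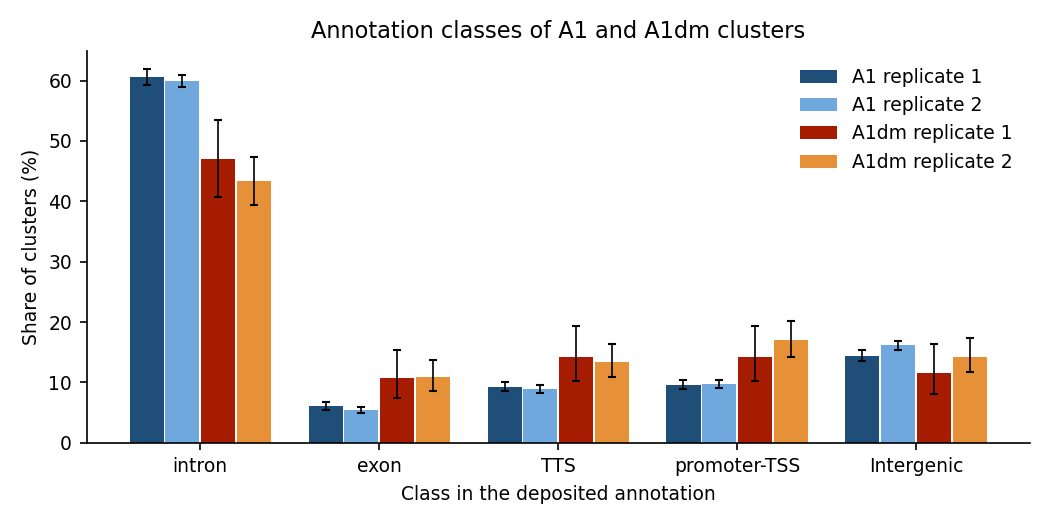
Share of clusters (vertical axis, percent) in each class of the deposited annotation (horizontal axis) for A1 replicates 1 and 2 (blue) and A1dm replicates 1 and 2 (red and orange), with 95% Wilson intervals as error bars. Both A1dm bars lie below both A1 bars for introns (47.0 and 43.3% against 60.6 and 59.9%) and above them for exons, TTS and promoter-TSS.

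The same shares can be put as numbers of clusters at the A1dm sizes. Even thinning leaves each A1 share as it is, so these numbers restate the shares and are no further check. A1dm replicate 1 held 109 intronic, 25 exonic and 33 promoter-TSS clusters, where A1 replicate 1 thinned to 232 clusters would hold 141, 14.1 and 22.3. A1dm replicate 2 held 258, 65 and 101, where A1 replicate 1 thinned to 596 clusters would hold 361, 36.2 and 57.4. Lists of the same size drawn evenly from A1 would thus hold more intronic and fewer exonic and promoter-TSS sites than either A1dm list.

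Within exons the difference was steepest in coding sequence. The deposited classes place a cluster near a transcript end even where it is coding, as for EIF4G1 and HSP90AA1 above, which carry the class TTS, so the clusters were also placed by strand on GENCODE transcripts. Coding sequence held 4.17 and 3.80% of the A1 clusters and 13.8 and 11.6% of the A1dm clusters (intervals 9.94 to 18.8% and 9.25 to 14.4%), and the groups did not overlap. These were 32 and 69 A1dm clusters, where thinned A1 lists would hold 9.67 or 8.82 and 24.8 or 22.7.

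Untranslated regions held more of the A1dm clusters too. The 3′ UTR share was 3.05 and 2.54% in A1 and 5.60 and 6.54% in A1dm, and the 5′ UTR share was 0.810 and 0.889% against 2.59 and 2.35%. In both kinds of region each A1dm library was above each A1 library, although the 5′ UTR share rests on 6 and 14 A1dm clusters.

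Nearly every A1 cluster held a purine run, and a large part of the A1dm clusters did not. Such a run lay in 98.1 and 96.6% of the A1 clusters and in 67.0 and 58.1% of the A1dm clusters (intervals 60.6 to 72.8% and 54.0 to 62.0%). The A1dm lists held 75 and 247 clusters without a run, where A1 replicate 2 thinned to the same sizes would hold 7.79 and 20.0. GAGGAA, a word of such runs, was present in 33.6% ± 0.817 of the A1 and 20.2% ± 3.08 of the A1dm clusters (SD, n = 2). Its share is not independent of the share of runs and was not taken among clusters with a run alone.

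The A1dm clusters with a run had the base composition of A1 clusters. Purines made up 91.0 and 91.1% of the bases in A1 clusters with a run and 91.2 and 90.7% in A1dm clusters with a run, and the libraries of the groups overlapped. Such clusters held 1.67 T on average in A1 and 1.64 in A1dm. Without a run the groups stood apart, with 73.8 and 74.2% purines in A1 and 59.4 and 59.7% in A1dm, and with a mean of 3.12 and 4.80 T per cluster.

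**Figure D2:**
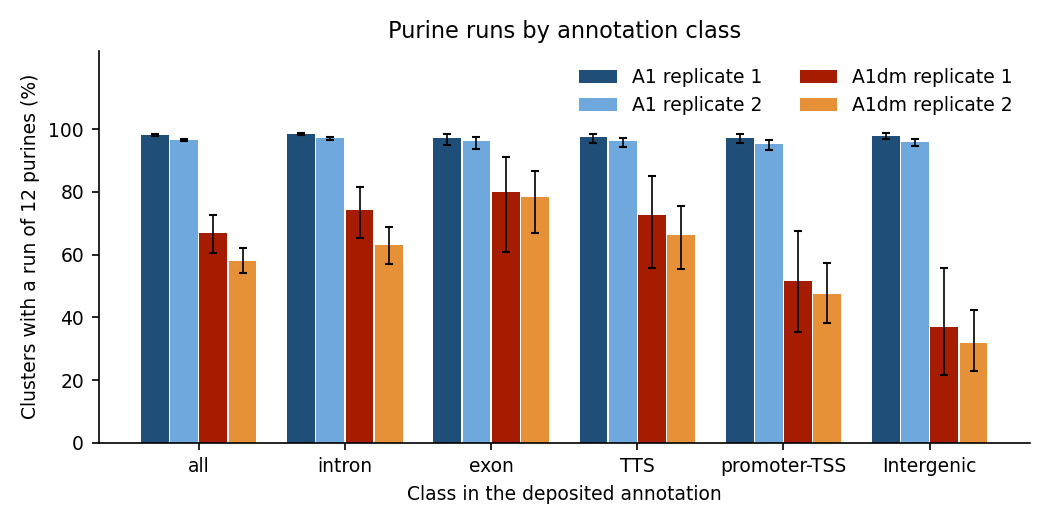
Share of clusters with a run of 12 purines (vertical axis, percent) among all clusters and within each class of the deposited annotation (horizontal axis) for the 2 A1 (blue) and 2 A1dm libraries (red and orange), with 95% Wilson intervals. The A1 bars stay between 95.1 and 98.5% in every class, and the A1dm bars go from 80.0% in exons of replicate 1 down to 31.8% in intergenic clusters of replicate 2.

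The share of A1dm clusters with a run went with the class. In exons it was 80.0 and 78.5%, in introns 74.3 and 63.2%, at promoter-TSS 51.5 and 47.5%, and between genes 37.0 and 31.8%. Since the 25 exonic and 27 intergenic clusters of A1dm replicate 1 are few, its intervals were wide, from 60.9 to 91.1% in exons and from 21.5 to 55.8% between genes. In A1 the corresponding shares were between 95.1 and 98.5% in all 5 classes of both libraries. Every class thus held a lower share of runs in both A1dm libraries than in both A1 libraries.

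The excess of coding clusters belonged to the A1dm clusters with a run. Among clusters with a run, coding sequence held 4.02 and 3.60% in A1 and 16.4 and 15.5% in A1dm, and the exonic class held 5.68% ± 0.491 in A1 and 14.0% ± 1.24 in A1dm (SD, n = 2). Among clusters without a run, the coding share was 9.33 and 6.48% in A1dm (7 of 75 and 16 of 247) and 11.9 and 9.56% in A1 (13 of 109 and 26 of 272). Both A1dm values were the lower, but the counts are few and the intervals of the groups overlapped. The exonic shares of the groups without a run overlapped too.

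The TTS class divided as the exons did, with 9.20 and 8.83% in A1 and 15.8 and 15.5% in A1dm among clusters with a run, and with overlapping groups among those without. Between genes the difference changed its direction. There, clusters with a run were rarer in A1dm (6.58 and 7.89%) than in A1 (14.4 and 16.0%), while clusters without a run were more frequent in A1dm (22.7 and 23.5%) than in A1 (15.6 and 19.5%). The promoter-TSS share was higher in A1dm on both sides, by 3.07 points with a run and by 7.53 points without. The intronic share was lower in A1dm on both sides, by 10.1 points with a run (50.5% ± 3.98 against 60.6% ± 0.389, SD, n = 2) and by 11.4 points without. Without a run, however, the intervals of the groups overlapped in the intergenic, promoter-TSS and intronic classes. Between genes they were 14.7 to 33.3% and 18.6 to 29.1% in A1dm and 9.97 to 23.6% and 15.2 to 24.6% in A1. The split by runs was made after the sequences had been seen and no test was run on it.

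The classical UAGG word was rare in both groups. TAGG, its DNA form on the transcribed strand, was present in 4.24 and 4.69% of the A1 clusters and in 4.41 and 5.43% of the A1dm clusters, so that the groups overlapped (exact two-sided permutation test over 2 against 2 libraries, p = 0.667). The difference of 0.452 points changed sign without A1dm replicate 2 and within exonic clusters. TAGG can lie beside a purine run but not inside it, since it begins with T. With 10 and 32 A1dm clusters that held it, the intervals (2.41 to 7.92% and 3.87 to 7.57%) leave room for a difference in either direction. The shorter word TAG, which includes TAGG, was present in 8.19 and 9.48% of the A1 and 11.9 and 14.3% of the A1dm clusters, without overlap between the groups. Over all clusters, however, A1dm held more T, with a mean of 2.83 per cluster against 1.71 in A1. The words were not set against the number of T, so the TAG shares cannot be read as a preference for that word.

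Most A1dm clusters with a run lay on an A1 site, and most of those without did not. Of the A1dm clusters with a run, 116 of 152 in replicate 1 (76.3%, interval 69.0 to 82.4%) and 250 of 342 in replicate 2 (73.1%, interval 68.2 to 77.5%) overlapped a cluster of either A1 library on the same strand. Of those without a run, 17 of 75 (22.7%, interval 14.7 to 33.3%) and 19 of 247 (7.69%, interval 4.98 to 11.7%) did. Over all A1dm clusters the shares were 58.6 and 45.1%. In the other direction, 5.15 and 4.12% of the A1 clusters overlapped an A1dm cluster.

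The return of A1 clusters in the other A1 library gives the scale for these values. It was 57.8 and 42.0% for A1 clusters with a run and 33.0 and 14.0% for those without, so the clusters without a run were the less recurrent kind in A1 as well. The A1dm clusters were compared with 2 A1 lists and each A1 cluster with 1, so the shares of the proteins are set side by side and not tested against each other.

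**Figure D3:**
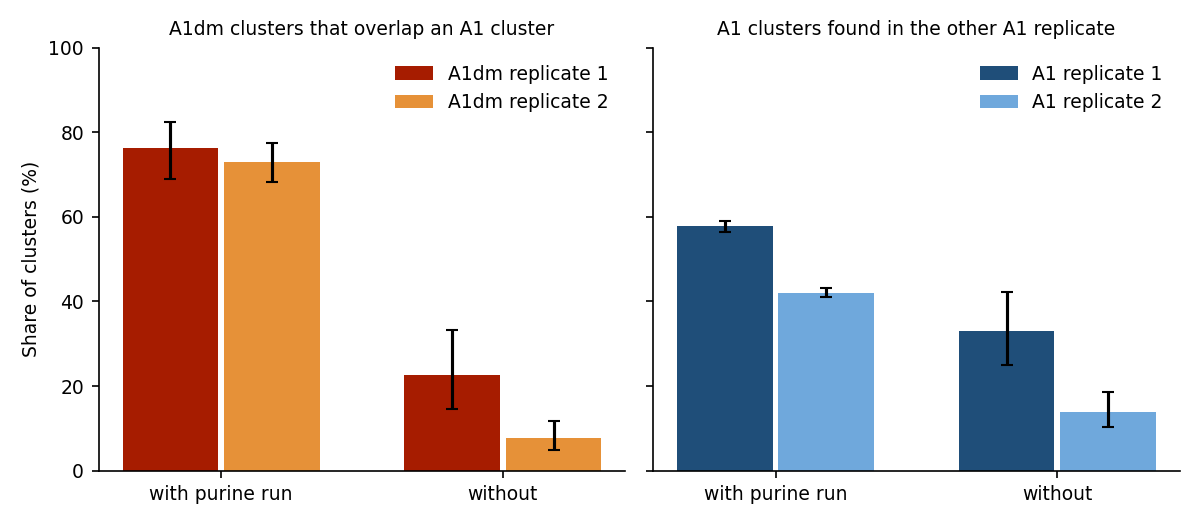
Left, share of A1dm clusters (vertical axis, percent) that overlap a cluster of either A1 library by 1 nucleotide or more, strand included, for clusters with and without a run of 12 purines. Right, share of A1 clusters found in the other A1 library, with 95% Wilson intervals in both panels. With a run, 76.3 and 73.1% of the A1dm clusters overlapped A1, and without a run 22.7 and 7.69% did.

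With a run present, most A1dm clusters of each class lay on an A1 cluster, with the lowest share at promoter-TSS in replicate 1. Among intronic A1dm clusters with a run, 66 of 81 and 124 of 163 overlapped an A1 cluster, and among exonic ones 15 of 20 and 31 of 51. Between genes, 9 of 10 and 19 of 27 with a run did so. At TTS the counts were 17 of 24 and 39 of 53, and at promoter-TSS 9 of 17 (52.9%, interval 31.0 to 73.8%) and 37 of 48. Without regard to runs, the intergenic shares were 48.1 and 29.4% and the promoter-TSS shares 36.4 and 38.6%, below those of the intronic class at 67.0 and 50.8%.

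The A1dm libraries shared more sites with each other than their size would give from A1. The 2 A1dm lists had 34 clusters in common, 14.7% of replicate 1 and 5.70% of replicate 2. The A1 lists thinned to the same sizes would share 9.80, or 4.22% of the smaller list. With every list thinned to 232 clusters, the A1dm pair would share 13.2, the A1 pair 3.81 and the 4 pairs of an A1 with an A1dm list between 2.68 and 4.52.

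The comparison with A1 was also made for clusters with and without a run. With clusters that held a run alone, thinned to 152 per list, the A1dm pair would share 9.78 and the A1 pair 1.70. Among clusters without a run, the A1dm pair shared 0.838 times as many as the A1 pair at equal size, against 3.47 times over all clusters. The depth of thinning was unlike, since the A1 lists with a run went from 5693 and 7823 clusters to 152. Those without a run went from 109 and 272 clusters to 75. The change of the ratio can therefore not be read as a property of runs. Without thinning, the return within A1dm was 14.5 and 6.43% of the clusters with a run and 14.7 and 4.45% of those without. Even thinning keeps strong and weak A1 sites alike, and the lists hold no reads to rank them. How much of the difference between the A1dm and A1 pairs belongs to the choice of sites in a short list was not tested.

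**Figure D4:**
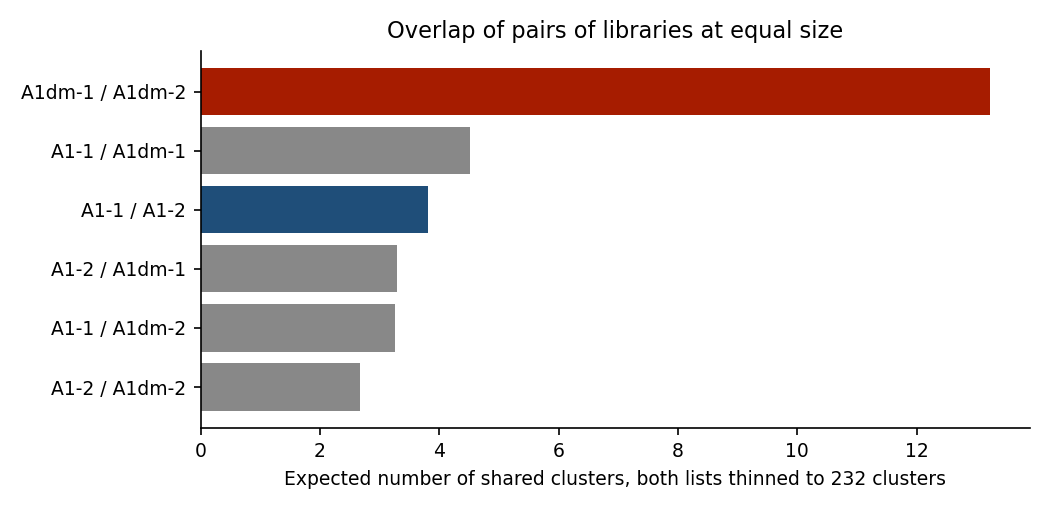
Expected number of clusters shared by each pair of libraries (horizontal axis) when both lists are thinned evenly to 232 clusters, for the pair of A1dm libraries (red), the pair of A1 libraries (blue) and the 4 pairs of an A1 with an A1dm library (grey). The A1dm pair reaches 13.2 and the other 5 pairs lie between 2.68 and 4.52.

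In genes with clusters of both proteins, most A1dm clusters lay on an A1 cluster. Of the A1dm clusters in genes with an A1 cluster, 116 of 158 in replicate 1 and 225 of 333 in replicate 2 lay on an A1 cluster (73.4 and 67.6%). With a run these shares were 83.5 and 80.9%, and without a run 32.3 and 13.6%. In these genes, A1dm clusters with a run thus lay on A1 clusters in most cases, and those without a run in few. A1dm clusters in genes without an A1 cluster were left out by this choice. The shares are thus not those over all A1dm clusters, which were 58.6 and 45.1%.

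The genes that held A1dm clusters were shorter. The median length of the gene around a cluster was 98.4 and 102 kb in A1 and 61.8 and 56.0 kb in A1dm, and 49.5 and 50.5% of the A1 clusters in genes against 33.5 and 33.6% of the A1dm clusters lay in a gene over 100 kb. Neither measure overlapped between the groups. Since introns make up most of a long gene, the length was also taken over intronic clusters alone, and there the medians were 113 and 116 kb in A1 and 86.9 and 87.2 kb in A1dm. Among clusters with a run they were 101 kb ± 3.30 in A1 and 68.2 kb ± 5.96 in A1dm (SD, n = 2).

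A1dm clusters also lay closer to transcript starts and to exons. The median distance to the nearest transcription start in the deposited annotation was 5832 and 6087 nucleotides in A1 and 3400 and 3789 in A1dm. Within 1 kb of such a start lay 16.5 and 15.7% of the A1 and 25.6 and 26.7% of the A1dm clusters. Among intronic clusters, the median distance to the nearest exon of the gene was 2492 and 2637 nucleotides in A1 against 1714 and 1867 in A1dm, and 12.7 and 11.9% against 24.2 and 15.5% lay within 300 nucleotides of an exon. The A1dm libraries were shifted toward starts and exons in all 4 measures, but for the 300 nucleotide window the A1dm replicates differed from each other more (SD 6.17 points) than replicate 2 differed from A1.

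**Figure D5:**
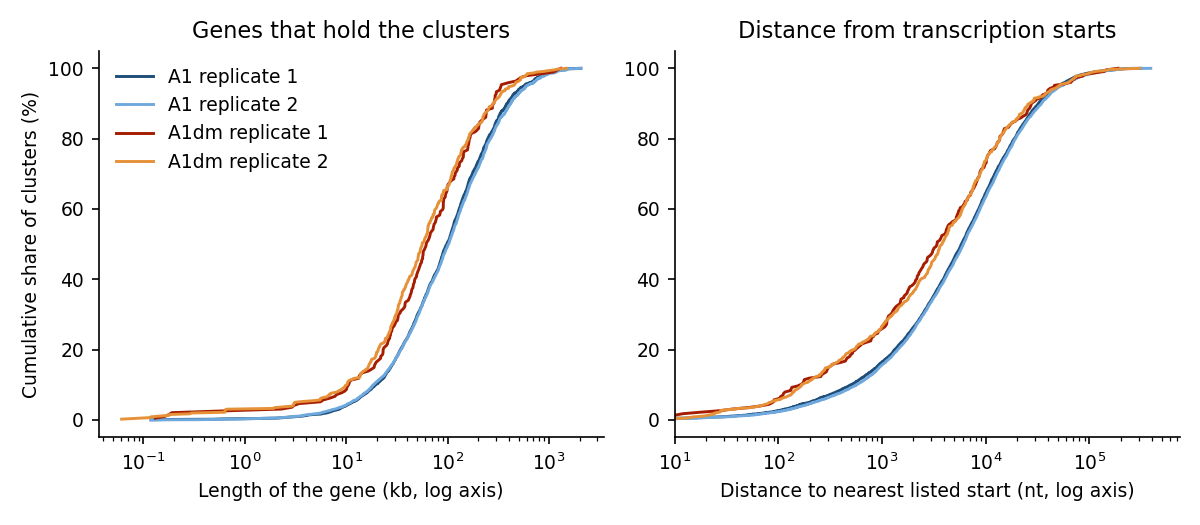
Cumulative share of clusters (vertical axis, percent) by the length of the gene that holds them (left, kb, log axis) and by the distance to the nearest listed transcription start (right, nucleotides, log axis) for the 4 libraries. The curves of both A1dm libraries (red and orange) lie left of both A1 curves (blue) through the middle of each panel, with median gene lengths of 61.8 and 56.0 kb against 98.4 and 102 kb.

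At the level of genes, 4915 had a cluster in at least 1 of the 4 libraries, 4760 of them with A1 and 581 with A1dm. Of the 581, 426 also had an A1 cluster (73.3%) and 155 did not. A total of 2049 genes (41.7% of the 4915) had A1 clusters in both replicates and none with A1dm, 4 genes (0.0814%) had them in both A1dm libraries and none with A1, and 32 (0.651%) had them in all 4. The number of clusters was lower in both A1dm libraries than in either A1 library for 2181 genes (44.4%). Most genes with A1dm had a single cluster, 517 of the 581, while 59 had 2 and 5 had 3 or more.

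These numbers cannot show that A1dm left a given gene. When the A1 lists were thinned to the A1dm sizes, the largest number expected for any gene over both A1dm libraries was 1.45, for DTNA, and only 7 genes exceeded 1. The genes with most A1 clusters and none with A1dm were SRGAP3 (8 and 11 clusters in A1 replicates 1 and 2), DLEU1 (6 and 11) and RAD51B (11 and 6), and their expected A1dm numbers were of that size, so the absence of a single gene from A1dm was not detectable at this number of clusters. BCAS3, FHIT, GNGT1, MSI2, ERC2 and ERC1 belonged to the same set, with 13 to 15 A1 clusters each. Counted over genes, 42 genes (0.855%) had clusters in both A1dm libraries, where thinned A1 lists would give 21.7. The number of distinct genes, 191 and 432, was near that of thinned A1 lists, at 176 or 169 and 440 or 423.

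The genes with most A1dm clusters were partly genes rich in A1 clusters. DTNA, which encodes dystrobrevin alpha, had 11 and 13 A1 clusters and 0 and 3 A1dm clusters, of which 1 lay on an A1 cluster. FYN, a Src-family kinase, had 8 and 10 against 1 and 2, with an intronic A1dm cluster on an A1 site in each A1dm library and another A1dm cluster of replicate 2 in an exon, without a run. CREB5, a transcription factor of the CREB family, had 8 and 12 against 0 and 2, and FAF1 had 7 and 9 against 0 and 2. In FAF1 both A1dm clusters overlapped A1 clusters, and in CREB5 neither did although both held a run. KMT2C, a histone methyltransferase, had 3 and 4 against 2 and 1.

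PRRC2C, DIAPH3, DNM2, IWS1 and DYRK1A were among the genes with clusters in all 4 libraries. Each had 1 cluster in either A1dm library, and those of DYRK1A were the same intronic site, shown above. In DIAPH3, a formin, DNM2, a dynamin, and IWS1, a partner of transcription elongation factors, the A1dm libraries had clusters at different positions, each of them on an A1 cluster. In PRRC2C the A1dm cluster of replicate 1 lay on an A1 cluster and that of replicate 2 did not, both in coding sequence.

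ENSG00000259001 stood apart from these genes. It had 5 A1dm clusters, 1 in replicate 1 and 4 in replicate 2, against 0 and 1 with A1, all in its exon, on a gene of 638 nucleotides, and none of the A1dm clusters held a purine run. The expected A1dm number from thinned A1 lists was 0.0511. The annotation used lacks RPPH1, the RNA of RNase P, and all transfer RNA genes, so the RNA at a site named by ENSG00000259001, AGBL5 or ENSG00000236469 is uncertain. HMGB2 had 1 A1 cluster in each replicate and 1 and 2 A1dm clusters. An A1dm cluster of replicate 2 lay on the A1 site, and the other position, in exon 3, was found in both A1dm libraries without A1. NAA15, a subunit of an N-terminal acetyltransferase, had an A1dm cluster in its 5′ UTR in replicate 1 and in coding sequence in replicate 2, both with a run and neither with an A1 cluster.

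In all, 34 regions were found in both A1dm libraries, out of 794 with an A1dm cluster. Of these 34, 14 lay in introns, 7 in coding sequence, 2 in 3′ UTRs, 3 in other exons, 2 antisense to a gene, 5 between genes and 1 in the mitochondrial genome. A sequence was read for 32 of them. Of the 22 with a run, 20 also held an A1 cluster of at least 1 library, and of the 10 without, 5 did.

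The regions with a run that returned lay in genes of several functions. Besides those printed above they included coding exons of CCDC13, RPLP2, a ribosomal stalk protein, and ATF3, a stress-induced transcription factor. Introns of KIF14, a mitotic kinesin, CUL3, a ubiquitin ligase scaffold, SNRPD3, a core spliceosomal protein, and IQCB1 were among them. So were introns of MED15, a Mediator subunit, IL11RA, and DROSHA, the nuclear microRNA processing enzyme. A site in TUG1 was exonic when placed by strand on GENCODE transcripts but carried the deposited class intron. The exon 3 site of ATF3 (chr1:212791478-212791502) was in A1 replicate 1 and both A1dm libraries. MCU, the mitochondrial calcium uniporter, and HMGB2 held the regions with a run that no A1 library had.

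The recurrent regions without a run lay in a small nuclear RNA gene, in long noncoding and protein-coding genes, and outside genes. RNU2-70P, a copy of the U2 small nuclear RNA, had its site in A1 replicate 1 and in both A1dm libraries, and because such copies are near-identical the copy named is uncertain. RAPGEF1, an exchange factor for small GTPases, held an intronic site that was also in A1 replicate 1. The site in the 3′ UTR of RWDD2A (chr6:83907062-83907078) was in A1 replicate 2 and both A1dm libraries, and its bases matched the 5′ sequencing adapter given in the labels over 13 bases in a row, and over 17 when T-to-C differences were allowed. No other position in the 4 lists matched the adapter over 12 bases or more, and whether reads of the adapter gave this cluster was not tested.

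Gene lists of known functions, which were chosen with earlier results of these data in view, gave the following numbers, set beside those for all genes (194 and 458 A1dm clusters, against 179 or 173 and 461 or 443 in thinned A1 lists). No test was run on a list. The proteins that splice and package RNA came first. SR and core spliceosome genes held 2 and 7 A1dm clusters, against 0.919 or 0.659 and 2.36 or 1.69 expected, in 8 of 58 genes, among them SNRPD3, RBM25, SF3B3 and PRPF31. A1 clusters lay in 23 of these 58 genes. Over all 62259 annotated genes, 581 had an A1dm cluster and 4760 an A1 cluster. Genes of hnRNPs and related proteins held 0 and 8, against 1.24 or 1.03 and 3.18 or 2.65 expected, and 6 of the 8 were exonic, compared with 8 of 31 and 6 of 36 A1 clusters in the same genes. EWSR1, RBFOX2, HNRNPM and FUBP1 were among them. The replicates thus fell on either side of the expectation for hnRNPs.

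HNRNPA1 itself had 1 A1dm cluster, in an untranslated exon part (chr12:54679127-54679156), in replicate 2, and no A1 cluster. A cluster there cannot be told apart from one on the plasmid's transcript where the plasmid holds the same bases. The list of known hnRNP A1 targets, which includes HNRNPA1, held 0 and 5 A1dm clusters against 0.160 or 0.315 and 0.411 or 0.809 expected, and PKM, whose exon choice hnRNP A1 is known to regulate, and HNRNPDL had their A1dm cluster on the intronic A1 site of both A1 libraries. AGFG1, shown as an example in the study, had 1 and 2 A1 clusters and none with A1dm. Its expected number over both A1dm libraries was 0.174, so this absence is not informative.

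Genes of protein synthesis and of stress had few clusters in any library. Translation factors held 2 and 3 A1dm clusters against 0.520 or 0.458 and 1.33 or 1.18 expected, and 4 of the 5 were exonic, with EIF4G1 in both A1dm libraries, EIF3A and EIF5B. Ribosomal protein genes held 1 and 4, all of them exonic, in RPLP2, RPL13A and RPSA, against 0.280 or 0.229 and 0.719 or 0.589 expected. Stress response genes held 2 and 3, again all exonic, in HSP90AA1, ATF3 and HSP90B1, against 0.200 or 0.0859 and 0.513 or 0.221 expected. The A1 clusters in ribosomal protein genes were mostly exonic as well, 6 of 7 and 6 of 8. In stress response genes 3 of 5 and 1 of 3 A1 clusters were exonic, and in translation factors 3 of 13 and 3 of 16. For all genes together, 70 of 194 and 180 of 458 A1dm clusters were exonic, against 781 of 4491 and 965 of 6024 A1 clusters.

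Chromatin and repair genes held more clusters than the other lists of protein-coding genes in A1. Chromatin remodelers and histone chaperones held 4 and 8 A1dm clusters against 2.08 or 1.83 and 5.34 or 4.71 expected, in HMGB2, SUPT16H, ARID1B, BAZ1B and 5 other genes. DNA repair and checkpoint genes held 3 and 6 against 1.998 or 1.58 and 5.13 or 4.05 expected, among them XRCC4, FANCI, MSH6 and XRCC5. RAD51B and FHIT, members of the same list, had 17 and 15 A1 clusters and none with A1dm.

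Short noncoding RNAs had A1dm clusters although A1 had almost none there. Small and structural RNAs held 3 and 8 A1dm clusters against 4 and 0 with A1, where thinned lists would hold at most 0.160 and 0.411. They included RNU2-70P, RNU2-59P, MIR186 and MIR3648, and none of the A1dm clusters in these 4 genes held a purine run. Nuclear long noncoding RNAs held 4 and 4 against 0.719 or 0.831 and 1.85 or 2.13 expected. TUG1 had 1 cluster in every library at the same site, MALAT1 had 0 and 2 with A1 and 1 and 1 with A1dm at positions without an A1 cluster, and DLEU2 and PVT1 had 1 A1dm cluster each.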

How the data were processed

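PAR-CLIP libraries of myc-tagged A1 and A1dm from HEK293T cells were compared, 2 per protein. Per the study's methods, the authors trimmed the reads, took out ribosomal RNA and aligned with STAR, while Bowtie and hg19 are named in the submitters' processing notes. Per the file headers, the lists are wavClusteR clusters annotated by HOMER, not the PARalyzer peaks of the study. All deposited scores were 0, so depth is unknown, and the other deposited columns give positions and classes.

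The start was taken as the listed start minus 1, after which 100% of the clusters with sequence held a T. Clusters were placed by strand on GENCODE 44 (lifted to GRCh37, the sequence of hg19), with exons ranked over introns and coding genes over other genes. Mitochondrial clusters were given neither gene nor sequence. Overlap meant at least 1 shared nucleotide on the same strand. Purine runs were 12 A or G in a row, and the words TAGG, TAG and GAGGAA were searched on the transcribed strand. Expected numbers after thinning were computed exactly, without random draws. Library means were compared by exact permutation tests with Benjamini-Hochberg adjustment over 12 tests. Python 3.11.15, pandas 2.3.3, SciPy 1.17.1 and pysam 0.24.0 were used, and the code was tested on simulated data. Named genes were those of regions found in both A1dm libraries, the genes with most clusters (up to 10 per set), up to 4 with A1dm clusters per list, HNRNPA1, AGFG1 and ATF3. A gene that this rule names is not reported here. The proteins compared, the lists and the rules were chosen with earlier results of these data known. Alternatives were each library left out, other overlaps, strand-aware and class-restricted counts, the replicate block, and, added after the data were seen, clusters with or without a run. A planned count of repeats was not run, since the detailed annotation column holds transcript biotypes.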

Additional observations from a re-analysis of the deposited data

How the results depend on the processing

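Of 83 alternative values for 8 differences of shares, 77 kept their direction, but some moved by over 1.5 times. Over regions found in both replicates the differences were -26.0 points for introns (-15.1 over all clusters), 16.6 for TTS (4.75), 1.76 for promoter-TSS (5.94), -0.525 between genes (-2.30) and 1.70 for TAGG (0.452). With strand-aware placement the exonic difference, with coding and untranslated parts included, was 17.5 points (5.12) and the intergenic, antisense included, was -5.71. With each library left out, the intergenic difference was -0.992 to -3.62 points, the smallest without A1dm replicate 1. Within exonic clusters the difference in runs was -17.4 points (-34.9) and in purine bases -5.24 (-10.7). The excess of distinct genes over thinned A1 was 0.464 without A1dm replicate 1, 18.3 without A1dm replicate 2 and -0.714 with strand ignored (9.36). The exonic difference was -1.54 points, the intergenic 5.53 and the TTS -0.103 among clusters without a run, a choice made after seeing the data. The TAGG difference was -0.0618 to 0.966 with each library left out (negative without A1dm replicate 2), -3.06 within exonic clusters and -1.49 with a run. The share of A1dm clusters on A1 sites was 74.7% with and 15.2% without a run, and 41.9 to 58.6% with each library left out, the lowest without A1 replicate 2. The share of A1 clusters on A1dm sites was 11.9% without a run and 1.68 to 5.15% with each library left out, the lowest without A1dm replicate 2. The ratio of replicate overlap was 5.75 with and 0.838 without a run, at unlike depths of thinning of the A1 lists. Genes with both A1dm libraries and no A1 numbered 1 with a run and 6 to 123 with each library left out (8 without A1 replicate 2, 36 without A1dm replicate 2 and 123 without A1dm replicate 1), and genes with both A1 libraries and no A1dm numbered 2140 to 3563, the most without A1 replicate 1, since a group of 1 library asks for 1 cluster. TTS and promoter-TSS have no strand-aware form and were not recomputed so. As a replicate block, the pairs gave intronic differences of -13.6 and -16.6 points with the same mean of -15.1, and no mean changed. Replicate deviations of A1 and A1dm in the share of clusters per gene had a correlation of r = -0.0712 over 426 genes. Since 517 of the 581 genes with A1dm held 1 A1dm cluster, this cannot tell whether the replicate numbers pair the libraries. Depth behind a cluster is unknown, so absence is not shown for any gene.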

Other observations

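Clusters antisense to a gene made up 9.54 and 11.0% of the A1 libraries and 4.74 and 8.89% of the A1dm libraries, and with a purine run 9.50 and 10.9% against 3.95 and 6.14%. The groups did not overlap in either share, but without a run they did, at 11.9 and 15.4% against 6.67 and 13.0%. By the same strand-aware placement, clusters between genes made up 13.1 and 14.6% of the A1 and 9.91 and 13.3% of the A1dm libraries, which overlapped. The mitochondrial genome held 2 and 1 A1 clusters and 4 and 6 A1dm clusters, or 0.0345 and 0.0123% against 1.72 and 1.01% of the clusters, and the single mitochondrial region found in both A1dm libraries had no A1 cluster. The GC share of the cluster bases overlapped between the groups, at 48.9 and 48.2% in A1 and 49.4 and 48.7% in A1dm. GGGG was present in 30.8 and 31.8% of the A1 and 22.5 and 24.1% of the A1dm clusters, and GAAGAA in 18.9 and 19.4% against 13.7 and 14.4%. Both words hold purines only, so their shares are not independent of the share of purine runs. No test was run on these values, and no explanation was tested.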
